A study of Mus musculus with 6 samples.

Results

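The replication-dependent histone genes supply the histone proteins that package newly copied DNA. They were taken as every symbol in the count table beginning HIST1, HIST2, HIST3 or HIST4, with pseudogene symbols (ending -PS) left out. By this rule there were 60 genes among 46937 symbols, of which 6 encode linker histone H1, 18 encode H2A, 13 encode H2B, 12 encode H3 and 11 encode H4. A count was present for 56 of them, and 55 passed the filter on low counts. HIST1H2AA, HIST2H2AA2, HIST2H2BB and HIST2H3B had no count in any library, and HIST1H1T, a testis H1 gene, had counts but did not pass the filter. The limit that a count of 0 allows, 3 counts, was 0.0396 to 0.0464 CPM (counts scaled to library size) depending on the library.

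DNA in the nucleus is wound around octamers of H2A, H2B, H3 and H4, and H1 binds the linker between them. Most genes for these proteins have no introns, lie in clusters and are transcribed in S phase under the coactivator NPAT at the histone locus body. Their mRNAs end in a conserved stem-loop in place of a poly(A) tail, and the stem-loop binding protein SLBP carries each message through processing, export, translation and decay. Dividing tumour cells therefore need much histone mRNA, and some members also make polyadenylated forms outside S phase.

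RNA was sequenced from lung squamous cell carcinoma biopsies of 2 kinds of mice, with 3 libraries per group. Both kinds are labelled as carrying constitutively active PI3K (Pik3caH1047R), overexpressed SOX2 (Sox2OE) and a deletion of CDKN2A/B (Cdkn2a/bKO). The control mice, named PSC, were labelled NSD3 WT. The PSCN mice also expressed the T1242A mutant of NSD3, a methyltransferase of histone H3, so the comparison of PSCN with PSC asks what differs when this mutant is added to the other alleles. Age, the promoter or Cre behind the alleles, pooling, and whether each biopsy came from a different mouse are not given in the sources used here. The p-values therefore reflect the spread between 3 libraries a group. By sex-specific transcripts the PSC libraries came from both sexes (below), so they did not all come from a single mouse. Libraries of the same sex within a group could still share a mouse, so part of the spread may be technical. The library kit reads total RNA and is stranded, so histone messages without a poly(A) tail could enter the libraries. The histone genes together held 0.0219% to 0.0320% of the counts of a library. How much of this came from messages without a poly(A) tail was not tested. Libraries are named by group and replicate number (PSC 1 to 3, PSCN 1 to 3).

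The stem-loop is shown first because it sets these messages apart from other mRNAs and differs between histone types. The histone stem-loop consensus was searched on the transcript strand as 16 bases that open with GG and close with CC, with T at positions 6 and 8, A at position 11 and any base elsewhere. It was present in the annotated transcript of 38 of the 60 members, against 17.0% of 21734 other protein-coding transcripts searched over their whole length. Within the last 200 bases it was present in 20 members against 0.851% of the other transcripts. The 6 examples run 5′ to 3′ with up to 5 flanking bases, and capitals mark the stem-loop.
HIST1H1C: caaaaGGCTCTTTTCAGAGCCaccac
HIST1H2AP: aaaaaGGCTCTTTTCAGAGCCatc
HIST1H2BJ: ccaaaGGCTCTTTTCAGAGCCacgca
HIST1H3A: ccaaaGGCTCTTTTCAGAGCCacaca
HIST1H4F: tcaaaGGCCCTTTTCAGGGCCaccca
HIST2H4: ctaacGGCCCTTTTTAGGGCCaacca
They lie in GRCm38 at chr13:23739507-23739532 (HIST1H1C, plus strand), chr13:21833026-21833049 (HIST1H2AP, minus), chr13:22043633-22043658 (HIST1H2BJ, plus), chr13:23761885-23761910 (HIST1H3A, minus), chr13:23551286-23551311 (HIST1H4F, minus) and chr3:96262934-96262959 (HIST2H4, minus). The most frequent form, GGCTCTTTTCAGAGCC, was found in 22 members: 3 H1, 9 H2A, 5 H2B and 5 H3 genes. All 9 H4 stem-loops differed from it. Counting positions from 1 at the first G, 5 H4 genes had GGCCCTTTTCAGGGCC (T4C and A13G, paired bases of the stem), 2 had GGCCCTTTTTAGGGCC (T4C, C10T and A13G) and 2 had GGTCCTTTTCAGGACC (C3T, T4C, A13G and G14A). The loop change C10A, giving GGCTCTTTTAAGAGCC, occurred in 6 members (1 H1, 2 H2B and 3 H3), and C10T alone occurred in 1 H2A gene. The annotated transcript ended within 100 nt of the stem-loop in 17 members and ran more than 100 nt past it in 21. In the 22 members without the letters, the annotated transcript can be too short to reach a stem-loop. That of HIST1H4K is 312 nt long, where the stem-loop of HIST1H4F starts at position 343. In such short transcripts missing letters therefore do not show that the gene lacks the element. Other members without the letters have longer transcripts, such as HIST2H2BE (2620 nt) and HIST1H2BC (1156 nt). Why these lack the letters was not tested.

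Promoters are shown because histone types carry different letters there and because H2A and H2B genes often share one. RefSeq promoters (GRCm38.p6, 250 bases before to 50 after the start) were found for 53 members. The promoters of 4 genes are printed 5′ to 3′ on the gene's strand. Capitals mark the motifs named after the sequences, on either strand, so that ATTGG marks CCAAT read from the other strand.
HIST1H1B: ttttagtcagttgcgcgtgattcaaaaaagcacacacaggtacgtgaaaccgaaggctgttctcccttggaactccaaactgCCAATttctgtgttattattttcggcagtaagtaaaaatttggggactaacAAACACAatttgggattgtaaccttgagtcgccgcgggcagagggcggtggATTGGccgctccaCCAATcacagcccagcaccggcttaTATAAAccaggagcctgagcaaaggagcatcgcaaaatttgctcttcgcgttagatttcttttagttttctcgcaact
HIST1H2BG: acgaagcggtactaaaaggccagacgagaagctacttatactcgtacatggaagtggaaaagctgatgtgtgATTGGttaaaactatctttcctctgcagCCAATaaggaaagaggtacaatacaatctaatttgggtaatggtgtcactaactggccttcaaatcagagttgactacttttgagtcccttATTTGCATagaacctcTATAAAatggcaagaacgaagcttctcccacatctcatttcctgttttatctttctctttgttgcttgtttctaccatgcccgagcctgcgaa
HIST1H3G: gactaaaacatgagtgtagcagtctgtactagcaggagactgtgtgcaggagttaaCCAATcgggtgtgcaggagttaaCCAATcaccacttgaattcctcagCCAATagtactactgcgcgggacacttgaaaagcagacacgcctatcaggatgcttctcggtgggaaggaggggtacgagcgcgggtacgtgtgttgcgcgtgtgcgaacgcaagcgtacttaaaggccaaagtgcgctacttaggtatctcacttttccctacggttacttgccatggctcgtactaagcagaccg
HIST1H4F: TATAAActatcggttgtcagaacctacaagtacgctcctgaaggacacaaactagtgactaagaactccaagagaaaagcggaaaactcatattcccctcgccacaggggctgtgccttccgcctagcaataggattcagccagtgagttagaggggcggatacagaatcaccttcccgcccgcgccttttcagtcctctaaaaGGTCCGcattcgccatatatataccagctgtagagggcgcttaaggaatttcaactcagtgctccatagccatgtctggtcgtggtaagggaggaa
Their positions are chr13:21780576-21780875 (HIST1H1B, minus strand), chr13:23571150-23571449 (HIST1H2BG, plus), chr13:23535168-23535467 (HIST1H3G, plus) and chr13:23551619-23551918 (HIST1H4F, minus). CCAAT was present in 46 of the 53 promoters, against 37.4% of 32851 promoters of the same length. It occurred in every H1, H2A, H2B and H3 promoter but in only 3 of 10 H4 promoters. TATAAA was present in 31 members against 13.6% of all promoters. The octamer ATTTGCAT was present in 7 of 16 H2A and 6 of 11 H2B promoters and in no H1, H3 or H4 promoter, against 1.74% of all. AAACACA, an element known from H1 promoters, was present in 5 of 6 H1, 2 of 16 H2A and 1 of 11 H2B promoters, against 7.18% of all. GGTCCG, the core of an element known from H4 promoters, was present in 9 of 10 H4 promoters and 1 H3 promoter, against 8.25% of all. TTTCGCGC, a form of the E2F site, was present in 4 H2A and 3 H2B promoters against 0.323% of all. TTTGGCGC was in none of the members' promoters (0.514% of all) and TTTCCCGC in 1, of HIST1H4A (1.07% of all). Both strands were searched, motifs were counted without regard to overlap, and divergent pairs share part of their promoter, so their matches are not separate.

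Total counts per library were 69563622 to 72807077. NSD3, expressed as the mutant in PSCN mice, was at 79.7, 96.7 and 102 CPM in PSC 1 to 3 and at 821, 918 and 1932 CPM in PSCN 1 to 3, with no overlap. For the labelled deletion, CDKN2A was at 1.51 to 5.13 CPM in all 6 libraries. CDKN2B was at 86.1 CPM (5904 counts) in the library labelled PSCN 1 against 0 to 0.943 CPM in the other 5. Taken alone, this goes against that label in PSCN 1, but whether cells with or without the deletion gave these counts was not tested. The labels do not say which exons are deleted. Without PSCN 1 the histone genes' median log2 fold change was 0.89 and the log2 ratio of their summed levels 0.49 (0.78 and 0.49 with it). PSC 3 also stood apart: its log2 CPM values correlated across genes at a mean r of 0.908 with those of its own group and 0.941 with those of PSCN. By sex-specific transcripts PSC 2 and PSC 3 were female and the other 4 libraries male. PSC 1 was therefore the only male PSC library, so a fit with sex as a covariate sets PSC 1 alone against PSCN. Of 11 squamous epithelial markers in the table, 10 had a positive log2 fold change in PSCN over PSC. Their summed level ran 656, 2469 and 7030 CPM in PSC 1 to 3 against 10685, 22706 and 8576 CPM in PSCN 1 to 3, and KRT5, a keratin of squamous and basal cells, was at 52.1 CPM in PSC 1. Normal lung markers went the other way. The summed level of 15 ciliated cell markers was 1300, 563 and 53.6 CPM in PSC against 36.4 to 88.1 CPM in PSCN, and that of 9 club cell markers was 24511, 12689 and 2070 CPM against 384 to 1195 CPM. That of 10 B and plasma cell markers was 280 to 386 CPM against 33.5 to 113 CPM. PSCN 1 alone had 43336 CPM of fibroblast markers, where the other 5 libraries had 1384 to 4399 CPM. A pair of abundant noncoding symbols, CT010467.1 and AY036118, held 2.71% to 4.12% of the counts of a PSC library and 1.05% to 2.52% of those of a PSCN library. Stress and immediate early genes, listed with these as signs of RNA quality, were higher by value with the histones. Of the 10 symbols listed, 8 had a positive log2 fold change, and the negative ones were CT010467.1 and AY036118 (both -0.84). The positive ones included FOS (0.78, SE 0.20), JUNB (1.08, SE 0.37) and EGR1 (0.69, SE 0.28), each with no overlap, and HSPA1B (1.54, SE 0.81) with overlap. In bulk tissue, fewer cells of a type and less RNA per cell cannot be told apart, and the part of these markers in the histone values was not tested.

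Histone messages summed over all members were more abundant in the PSCN libraries. The summed level of the 60 genes was 206, 206 and 282 CPM in PSC 1 to 3 against 328, 322 and 325 CPM in PSCN 1 to 3. Every PSCN library lay above every PSC library, and PSC 3 lay between the other PSC libraries and the PSCN group. The means were 231 ± 44.1 CPM (SD, n = 3) and 325 ± 3.03 CPM (SD, n = 3), a ratio of 1.41 that became 1.58 without PSC 3. Without the member with the most counts of each type, the sum was 82.5, 96.5 and 119 CPM in PSC 1 to 3. It was then 117, 132 and 130 CPM in PSCN 1 to 3, so the groups overlapped, with a ratio of 1.28. Of the 55 genes tested, 48 had a positive and 7 a negative log2 fold change, where 49.1% of all 21201 genes tested were positive. The median log2 fold change was 0.78, beside -0.01 for all genes. Without the filter on low counts, 47 of 56 were positive with a median of 0.75. The filter's cutoff was reached in all 3 PSC libraries by 44 members, of which 37 were positive, with a median of 0.64. It was reached in only 1 or 2 PSC libraries by 10 members (median 1.22) and in none by 1, HIST1H4F (1.70). All of these were positive. They passed through their PSCN libraries, except HIST1H1A, which had 8 counts in PSCN 1 and passed through PSC 3, PSCN 2 and PSCN 3.

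No single histone gene passed an adjusted p of 0.05 in edgeR's quasi-likelihood test, and only 1 gene in the whole table did (0.00472%). The lowest adjusted p among the members with edgeR was 0.187, for HIST1H1B. At an unadjusted p of 0.05 in the same test, 14 members were higher in PSCN against 9.48% of all genes, and 0 were lower against 12.2%. In 27 members every PSCN library lay above every PSC library (15.2% of all genes), and in 1 member every PSCN library lay below (13.4%). Against PSC 1 and PSC 2 alone, every PSCN library lay above in 42 members (27.7% of all genes). DESeq2 called 2 members higher and 0 lower (8.65% of all genes lower): HIST1H1B (adjusted p = 0.0133) and HIST1H1C (adjusted p = 0.0292), where it called 5.31% of all genes higher. In the authors' deposited table the same 2 members were past an adjusted p of 0.05, with log2 fold changes of 1.71 for HIST1H1B and 0.66 for HIST1H1C, and 3.92% of its genes were higher. Without PSC 3, edgeR called 5 members higher (HIST1H1C, HIST1H2AE, HIST1H2AK, HIST1H2AP and HIST1H3G; 3.39% of all genes) and 0 lower (5.4%), and the members' median became 1.18. With voom and sample quality weights, 17 members were called higher (8.43% of all genes) and 0 lower (5.84%).

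**Figure D1:**
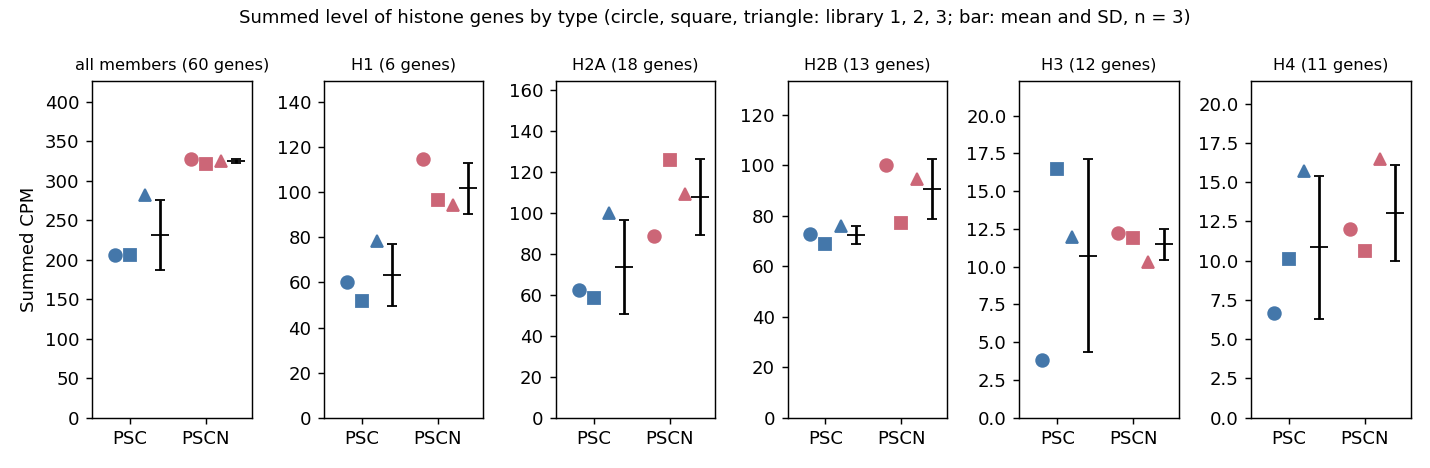
Summed CPM of the histone genes in each library (y axis, starting at 0, a different scale in each panel) for all 60 genes and for each histone type, with the mean and SD of 3 libraries as a bar. For all genes and for H1 and H2B the PSCN libraries lie above the PSC libraries, while for H2A, H3 and H4 the groups overlap.

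H1 genes showed the largest ratio of summed levels among the 5 types. The H1 sum was 60.1, 51.7 and 78.5 CPM in PSC 1 to 3 against 115, 96.4 and 94.4 CPM in PSCN 1 to 3. The groups did not overlap, and the ratio of means was 1.61. All 5 H1 genes tested had a positive log2 fold change, with a median of 0.99, and in 4 of them every PSCN library lay above (15.2% of all genes). HIST1H1C (chr13:23738808-23740367, 1 exon) encodes a somatic H1 that also makes polyadenylated mRNA, and it was at 58.3, 49.4 and 74.6 CPM across PSC and 110, 90.6 and 89.1 CPM across PSCN. Its log2 fold change was 0.67 (SE 0.20, edgeR adjusted p = 0.191). Per kilobase of transcript, HIST1H1C stood at 50.4 CPM per kb of the 52.4 summed over H1 genes. HIST1H1B (chr13:21779883-21780625, 1 exon), whose product is known from proliferating cells, was at 0.121, 0.158 and 0.272 CPM across PSC and 0.510, 0.556 and 0.739 CPM across PSCN. Its log2 fold change was 1.70 (SE 0.43, edgeR adjusted p = 0.187), with no overlap between groups, but it reached the filter's cutoff in only 1 or 2 PSC libraries. The somatic H1 genes HIST1H1D and HIST1H1E also had groups that did not overlap, with log2 fold changes of 0.99 (SE 0.41) and 0.90 (SE 0.36).

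The H2A sum was 62.3, 58.4 and 99.9 CPM in PSC 1 to 3 against 88.8, 126 and 109 CPM in PSCN 1 to 3, a ratio of means of 1.47. PSC 3 lay above PSCN 1, so the groups overlapped. Of 16 H2A genes tested, 14 were positive, with a median log2 fold change of 0.84 that became 1.29 without PSC 3. Every PSCN library lay above every PSC library in 5 of them (15.2% of all genes) and above PSC 1 and PSC 2 in 12 (27.7%). HIST1H2AP (chr13:21833026-21833507, 1 exon), the highest H2A gene per kilobase at 50.8 CPM per kb, was at 13.6, 10.4 and 27.6 CPM across PSC and 25.5, 38.8 and 31.1 CPM across PSCN. Only PSC 3 reached into the PSCN range. Its log2 fold change was 0.89 (SE 0.40, edgeR adjusted p = 0.256). HIST1H2AE was at 0.594, 0.805 and 1.81 CPM across PSC and 2.27, 2.80 and 2.54 CPM across PSCN. Its groups did not overlap, and its log2 fold change was 1.24 (SE 0.49, edgeR adjusted p = 0.219). HIST1H2AG and HIST1H2AJ had log2 fold changes of 0.88 (SE 0.39) and 0.84 (SE 0.40), with PSC 3 again inside the PSCN range. The annotation lists HIST1H2AJ and HIST1H2AL as pseudogenes. Reads from H2A genes are hard to assign to 1 gene, because HIST1H2AP shares 92.6% and HIST1H2AJ 92.4% of their 76-base stretches with other transcripts, so the sum over H2A genes is the firmer value.

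H2B genes had a smaller ratio, and their sum still separated the groups. The H2B sum was 72.9, 68.8 and 76.0 CPM in PSC 1 to 3 against 100, 77.3 and 94.8 CPM in PSCN 1 to 3, a ratio of means of 1.25. PSCN 2 lay just above the highest PSC library. Of 12 H2B genes tested, 10 were positive, the median log2 fold change was 0.46, and in 8 the PSCN libraries lay above the PSC libraries (15.2% of all genes). HIST1H2BC (chr13:23684199-23692908), which is among the 2 members annotated with more than 1 exon, was at 46.5, 40.3 and 49.8 CPM across PSC and 64.4, 52.4 and 62.9 CPM across PSCN. Its groups did not overlap, and its log2 fold change was 0.40 (SE 0.15, edgeR adjusted p = 0.215). HIST1H2BJ (chr13:22043214-22043676, 1 exon) was at 0.499, 1.15 and 1.35 CPM across PSC and 2.06, 2.07 and 2.25 CPM across PSCN, and its log2 fold change was 1.09 (SE 0.43, edgeR adjusted p = 0.225). HIST1H2BE had a log2 fold change of 0.35 (SE 0.24), with overlap. The negative members were HIST2H2BE and HIST3H2BA. HIST2H2BE (chr3:96221119-96223738) was at 10.6, 10.9 and 3.92 CPM across PSC and 7.09, 2.27 and 3.85 CPM across PSCN. PSC 3 lay with the PSCN libraries, and the log2 fold change was -0.95 (SE 0.57, edgeR adjusted p = 0.362). HIST3H2BA had a log2 fold change of -0.40 (SE 0.79).

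H3 genes had the largest median log2 fold change of the 5 types at low levels, and their sum did not separate the groups. HIST1H3A, HIST1H3F, HIST1H3G, HIST1H3H and HIST1H3I reached the filter's cutoff in only 1 or 2 PSC libraries. The H3 median and the counts of H3 genes below therefore rest in part on members that passed the filter through PSCN. The H3 sum was 3.81, 16.5 and 11.9 CPM in PSC 1 to 3 against 12.2, 11.9 and 10.3 CPM in PSCN 1 to 3, a ratio of means of 1.07. HIST2H3C1 and HIST2H3C2 together made up 64.9% to 89.0% of this sum in the PSC libraries and 40.2% to 61.9% in the PSCN libraries. Of 11 H3 genes tested, 10 were positive with a median of 1.15, in 8 every PSCN library lay above (15.2% of all genes), and 7 were higher at an unadjusted p under 0.05 with edgeR (9.48%). HIST1H3A (chr13:23761853-23762386, 1 exon) was at 0.094, 0.079 and 0.150 CPM across PSC and 0.204, 0.479 and 0.377 CPM across PSCN. Its log2 fold change was 1.70 (SE 0.49, edgeR adjusted p = 0.191). HIST1H3G (chr13:23535422-23535951, 1 exon) was at 0.094, 0.106 and 0.286 CPM across PSC and 0.452, 0.525 and 0.530 CPM across PSCN. Its log2 fold change was 1.62 (SE 0.52, edgeR adjusted p = 0.195), and in neither gene did the groups overlap. HIST1H3B, chosen after its values were seen as the member with the largest fold change, was at 0.135, 0.158 and 0.586 CPM across PSC and 1.24, 2.04 and 0.614 CPM across PSCN, with a log2 fold change of 2.14 (SE 0.76). PSC 3 and PSCN 3 were nearly level for this gene. HIST1H3D had a log2 fold change of 0.62 (SE 0.55), with overlap.

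The H4 sum was 6.69, 10.1 and 15.7 CPM in PSC 1 to 3 against 12.0, 10.6 and 16.5 CPM in PSCN 1 to 3, a ratio of means of 1.20 with overlap. Of 11 H4 genes tested, 9 were positive and the median was 0.35, which became 0.77 without PSC 3, 0.54 without PSCN 1 and 1.29 with sex as a covariate, and 0.25 without PSC 1 and 0.27 without PSCN 3 (6 of 11 positive). Every PSCN library lay above every PSC library in 2 of the 11 (15.2% of all genes) and below in 1 (13.4%). HIST1H4I (chr13:22040636-22041362, 1 exon), at 7.28 CPM per kb the highest H4 gene per kilobase, was at 2.43, 4.61 and 6.93 CPM across PSC and 6.12, 5.22 and 6.45 CPM across PSCN, with a log2 fold change of 0.35 (SE 0.41). HIST1H4F (chr13:23551258-23551648, 1 exon) was at 0.027, 0.053 and 0.123 CPM across PSC and 0.160, 0.201 and 0.307 CPM across PSCN. Its groups did not overlap and its log2 fold change was 1.70 (SE 0.63, edgeR adjusted p = 0.208). However, 1 PSC library was under the 3-count limit, and no PSC library reached the filter's cutoff. HIST1H4A had a log2 fold change of 0.89 (SE 0.47), HIST1H4K of 0.16 (SE 0.51) and HIST2H4 of -0.05 (SE 0.60), all with overlap. HIST1H4H (chr13:23531050-23531519, 1 exon) was the 1 member in which every PSCN library lay below every PSC library. It was at 1.09, 1.12 and 1.13 CPM across PSC and 0.904, 0.603 and 0.921 CPM across PSCN, a log2 fold change of -0.46 (SE 0.32, edgeR adjusted p = 0.413).

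**Figure D2:**
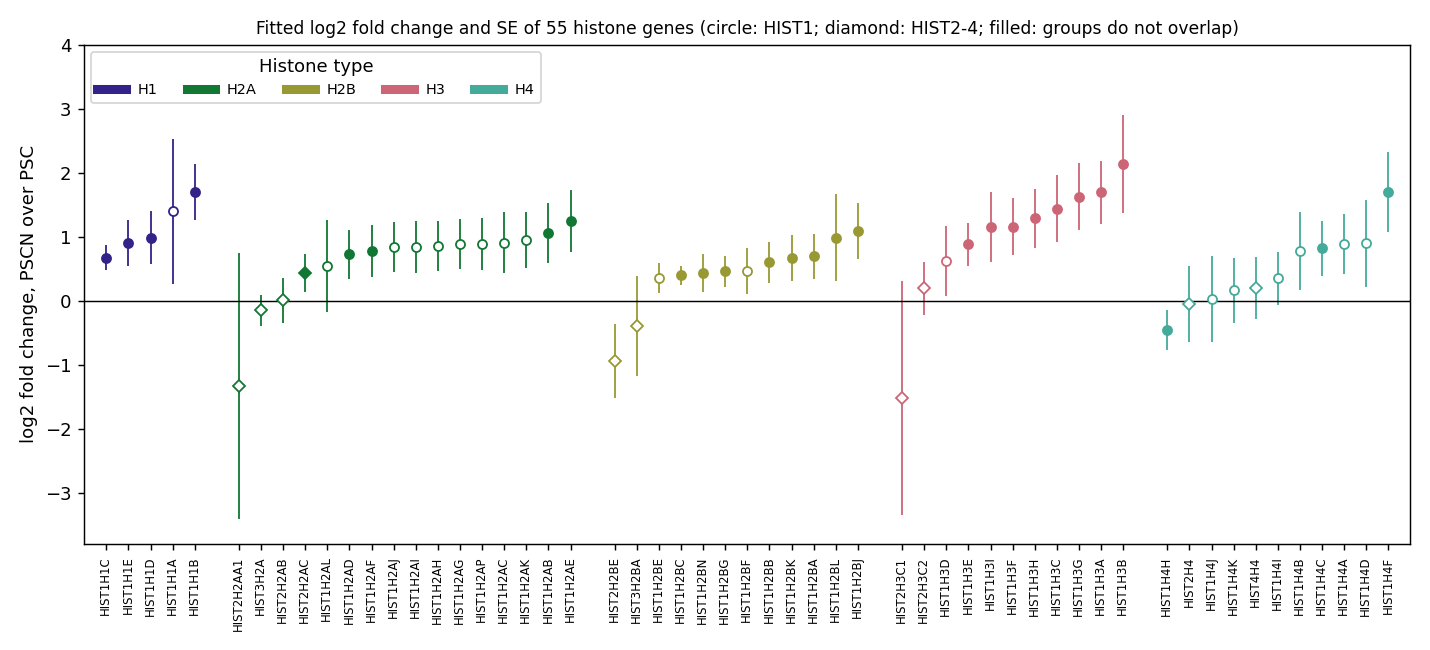
Fitted log2 fold change of PSCN over PSC (y axis) with its SE (bars, 3 libraries per group) for the 55 histone genes that passed the filter, ordered within each type. Circles are HIST1 genes and diamonds HIST2, HIST3 and HIST4 genes, filled where the groups do not overlap. Nearly all HIST1 genes lie above 0, while the lowest values, -1.52 for HIST2H3C1 and -1.34 for HIST2H2AA1, are HIST2 genes with wide errors.

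**Figure D3:**
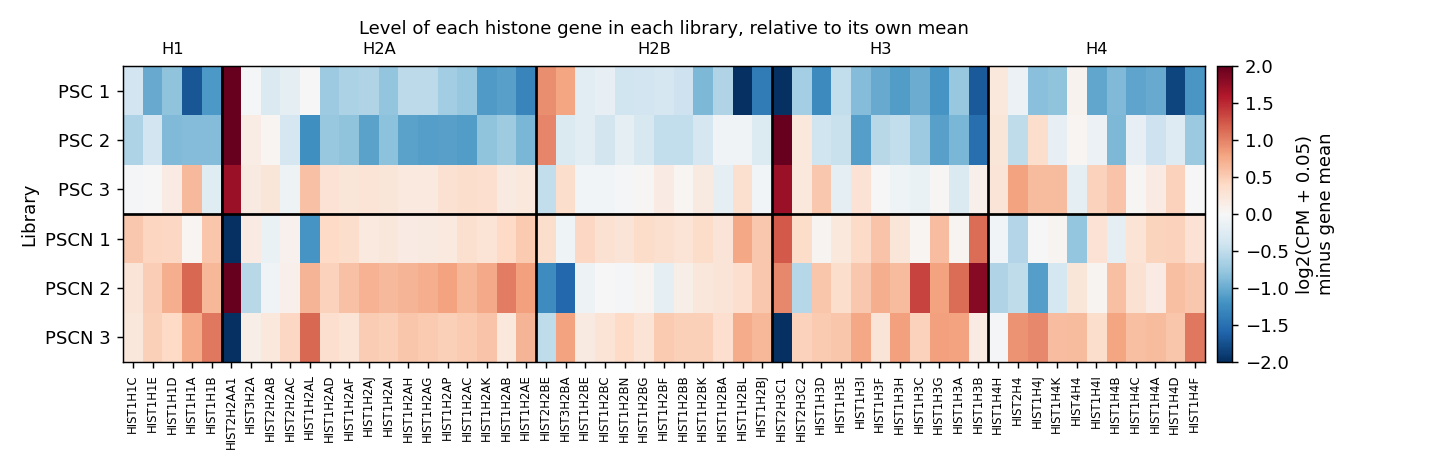
Level of the same 55 genes in each library (rows) as log2(CPM + 0.05) minus the gene's own mean, with colours held at 2 above and 2 below. PSC 1 and PSC 2 are mostly blue, and PSC 3 is close to the PSCN libraries for most H2A genes.

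By genomic cluster, in HIST1, on chromosome 13, 44 of 45 genes tested were positive, with a median log2 fold change of 0.88, and the ratio of summed means was 1.57. The 16 members at chr13:21715763-22043676 had a median of 0.87 and the 28 tested at chr13:23531050-23934851 a median of 0.89. In HIST2, HIST3 and HIST4 together 4 of 10 genes tested were positive, with a median of -0.10, and the summed level was 43.4 ± 9.72 CPM for PSC against 30.6 ± 2.39 CPM for PSCN (SD, n = 3 per group). That median was 0.0098 without PSC 3, 0.024 without PSCN 2, 0.16 with sex as a covariate and -0.51 without PSCN 3 (1 of 10 positive). The difference between clusters was not tested. HIST3H2A was at 14.0, 16.1 and 16.3 CPM across PSC and 16.2, 9.87 and 15.7 CPM across PSCN, a log2 fold change of -0.15 (SE 0.24). At the HIST2 locus (chr3:96219865-96270132) near-identical copies make single values uncertain. HIST2H2AA1 was at 7.83, 10.6 and 5.01 CPM in PSC but at 0.015, 9.26 and 0 CPM in PSCN. HIST2H3C1 was at 0.162, 10.3 and 3.90 CPM across PSC and 2.73, 2.27 and 0 CPM across PSCN. Every 76-base stretch of either gene also lies in another transcript, on either strand. Summed with 5 of the symbols that share those stretches (HIST2H2AA2, HIST2H3C2 and GM20632 to GM20634), the locus was at 34.8, 45.8 and 36.7 CPM across PSC and 46.5, 31.2 and 35.3 CPM across PSCN, so the groups overlapped. GM20628 and HIST2H3B, which also share stretches with HIST2H3C1, were left out of this sum. HIST2H3B had no count. HIST2H3C2 itself had a log2 fold change of 0.19 (SE 0.42).

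H2A and H2B genes are often transcribed away from each other out of a shared promoter, as in the printed HIST1H2BG promoter, whose start lies 176 nt from that of HIST1H2AE. There were 9 such pairs with starts 176 to 306 nt apart, and 8 had both genes tested. Both genes were positive in 7 of the 8. The H2A gene had the larger log2 fold change in 6 of them, as with 1.24 for HIST1H2AE and 0.46 for HIST1H2BG (chosen after its values were seen, for its printed promoter). The exception in direction was on chromosome 3, where HIST2H2AC was at 0.43 and HIST2H2BE at -0.95. Members whose transcript ends within 100 nt of the stem-loop had a median of 0.83 over 16 tested, and those annotated to run further had 0.54 over 20. Those with no stem-loop letters had 0.84 over 19, but some of these are annotated too short to reach a stem-loop. These medians were not tested against each other.

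Genes for the transcription and processing of histone messages had smaller median log2 fold changes than the histone genes, a difference that was not tested. None of the genes in the following lists passed the adjusted threshold with edgeR (0.00472% of all genes did). Of 9 factors for histone transcription, 6 were positive, with a median log2 fold change of 0.27. NPAT was at 27.1, 25.4 and 32.6 CPM across PSC and 25.3, 32.1 and 27.0 CPM across PSCN, a log2 fold change of -0.01 (SE 0.17). CASP8AP2, a histone locus body protein, had 0.07 (SE 0.16). Neither gene separated the groups, whereas CDC25A, a phosphatase that drives S phase entry, had 0.57 (SE 0.21) with no overlap, as did CCNE1, a cyclin of the same step, with 1.09 (SE 0.46). Of 25 genes for 3′ end processing, 21 were positive, with a median of 0.24. SLBP was at 26.5, 22.5 and 31.3 CPM across PSC and 28.7, 32.3 and 33.9 CPM across PSCN, and its log2 fold change was 0.24 (SE 0.17, edgeR adjusted p = 0.436) with overlap. SNRPF, a core protein of small nuclear ribonucleoproteins including U7, was at 16.8, 14.9 and 19.8 CPM across PSC and 27.8, 38.5 and 29.6 CPM across PSCN. Its log2 fold change was 0.90 (SE 0.20, edgeR adjusted p = 0.179), with no overlap. NCBP1, a cap-binding protein, had 0.55 (SE 0.18), and ERI1, an exonuclease that trims histone mRNA, had 0.48 (SE 0.16).

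Of 23 histone chaperones and related factors, 18 were positive and the median was 0.37. HJURP, the chaperone of the centromeric H3 variant, was at 37.6, 34.8 and 52.6 CPM across PSC and 202, 103 and 93.1 CPM across PSCN, a log2 fold change of 1.67 (SE 0.36, edgeR adjusted p = 0.176). ATRX, which deposits an H3 variant at repeats, had -0.63 (SE 0.14) with every PSCN library lower, and the nucleolar chaperone NPM1 had 0.95 (SE 0.28). Among histones listed as replication-independent, 6 of 8 tested were positive with a median of 0.17. H2AFX, the variant phosphorylated at DNA breaks, was at 36.6, 34.4 and 64.8 CPM across PSC and 68.0, 91.9 and 77.2 CPM across PSCN. Its groups did not overlap, and its log2 fold change was 0.80 (SE 0.29, edgeR adjusted p = 0.202). CENPA, the centromeric H3 variant, had 0.80 (SE 0.40) and H2AFV -0.26 (SE 0.15), both with overlap.

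Other genes of S phase were also higher by value in PSCN. All 36 S phase genes listed, which include replication factors and enzymes of nucleotide supply, had a positive log2 fold change, with a median of 0.54. Every PSCN library lay above every PSC library in 14 of them (15.2% of all genes), and 1 was higher at an unadjusted p under 0.05 with edgeR (9.48% of all genes). Their summed level was 982, 640 and 1224 CPM in PSC 1 to 3 against 1345, 1514 and 1272 CPM in PSCN 1 to 3. TK1, which salvages thymidine, had the smallest p of the list, with a log2 fold change of 0.56 (SE 0.22, edgeR adjusted p = 0.224). Dividing histone counts by S phase counts gave 0.209, 0.321 and 0.230 in PSC and 0.244, 0.213 and 0.256 in PSCN. The groups overlapped in this ratio, the highest library was PSC 2, and the log2 ratio of the group means was -0.10. Without PSC 2 it was 0.11. Mitosis genes, 29 of 29 positive with a median of 0.83, were higher by value too. PSC 3 was high among the PSC libraries in histone, S phase and mitosis genes alike. The share of cells in S phase was not measured here, and its part in the histone difference was not tested.

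**Figure D4:**
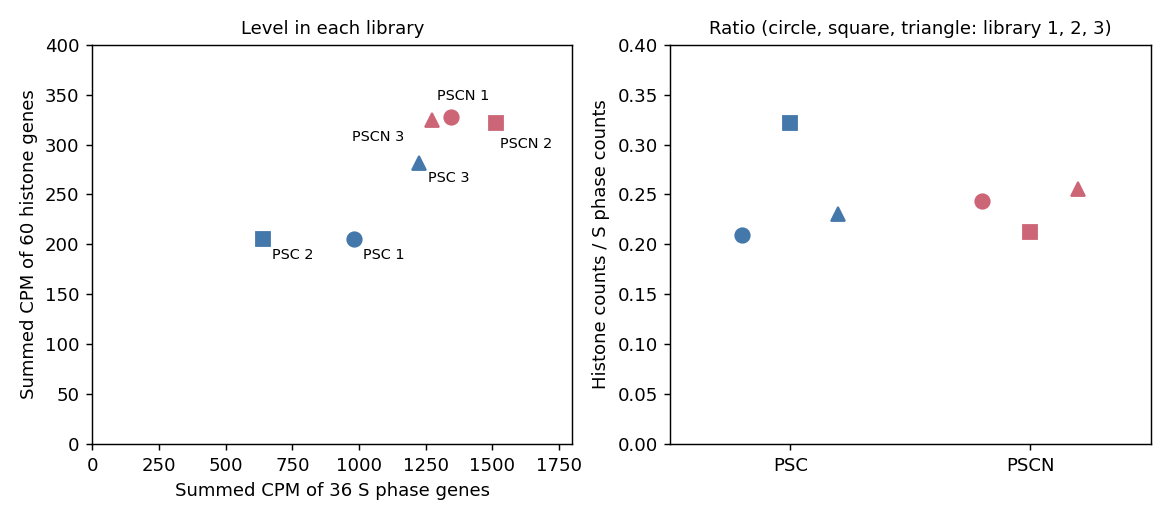
Left, summed CPM of the 60 histone genes (y axis) against summed CPM of 36 S phase genes (x axis) in the 6 libraries; right, the ratio of their counts by group, with both axes of level starting at 0. The PSCN libraries are highest on both sums, PSC 3 lies next to them, and the ratio does not separate the groups.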

How the data were processed

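Total RNA from 6 mouse tumour biopsies was sequenced with a stranded kit as paired 76-base reads, per the labels' protocols. Trimmomatic, HISAT2, StringTie and DESeq2 and the build GRCm38 are named in the submitters' processing notes, without versions. The authors deposited estimated counts per gene symbol for each library and a table of their comparison. That table holds, per the file headers, a mean normalized signal, a log2 fold change with its standard error, a Wald statistic (a score) and p-values. The counts are whole numbers in the file. Its columns, lettered C or N with a digit, were read as PSC (control) and PSCN (NSD3 mutant) by replicate number.

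Genes were filtered with filterByExpr (minimum count 10), scaled by TMM and tested with edgeR 4.0.16 (quasi-likelihood test) in R 4.3.3, with Benjamini-Hochberg adjustment over 21201 genes and a threshold of 0.05. The scripts were tested on simulated data. CPM values use TMM library sizes, and SE is the log2 fold change over the square root of F. Alternatives were DESeq2 1.42.0, voom with sample quality weights (limma 3.58.1), other filters, leaving out each library, sex, and replicate number as a block. Transcripts came from GENCODE M21 and promoters from RefSeq. The members and lists were chosen with earlier results of these data known. For each type the 3 members with the largest mean count and the 2 with the smallest p are named, plus every tested negative member, members with no count, SLBP, NPAT, CASP8AP2 and H2AFX, and up to 3 genes of each list with the smallest p. H3F3A, H3F3B and H1F0 were not analysed here.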

Additional observations from a re-analysis of the deposited data

How the results depend on the processing

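The number of genes past the threshold depended on the tool. It was 1 with edgeR, 2960 with DESeq2, 3026 with voom and sample quality weights, 3 with a 1 CPM filter, 0 with the replicate block and 0 with sex as a covariate, and ranged from 0 to 1946 when 1 library was left out, the highest without PSC 3. Of the histone genes, 0 passed with edgeR, 2 with DESeq2, 17 with voom (8.43% of all genes higher) and 22 with DESeq2 without PSC 3 (14% of all genes higher, an alternative chosen after seeing the data), and 0 to 5 with 1 library left out, the highest without PSC 3. Their median log2 fold change of 0.78 became 1.22 with sex as a covariate, a fit that sets only PSC 1 against PSCN. It ranged from 0.55 to 1.18 with 1 library left out. The log2 ratio of their summed levels, 0.49, ranged from 0.41 to 0.67 with 1 library left out. It was 0.35 without the member with the most counts of each type. After division by S phase genes it was -0.10, where leaving out 1 library gave -0.22 to 0.11 (positive without PSC 2, chosen after seeing the data). The cause of these changes was not tested.

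Same-numbered libraries correlated at 0.19, -0.05 and 0.02 in their deviations from the group means, and those with unlike numbers at -0.18 to 0.19. The labels do not say whether the numbers pair libraries, and 3 libraries a group are too few for these correlations to decide it. The histone genes' median log2 fold change was 0.88 with the replicate block. Over 49 single genes, 617 values under an alternative kept their direction and side of the threshold, 44 newly passed it and 16 changed sign. The sign changes with other settings were HIST2H3C1 with sex (3.35), HIST2H4 with voom (0.48) and with sex (0.24), and NPAT with voom (0.079) and with sex (0.053). With 1 library left out, values ran from -0.054 to 0.41 for HIST2H3C2 (negative without PSC 1 or, at -0.02, PSCN 3), -0.76 to 0.44 for HIST2H4 (positive without PSC 3, PSCN 1 or PSCN 2), -0.17 to 0.65 for HIST1H4K (negative without PSCN 3 or PSC 1), -1.26 to 0.042 for HIST3H2BA (positive without PSCN 2), -0.16 to 0.11 for NPAT (positive without PSC 3 or PSCN 1) and -0.064 to 0.17 for CASP8AP2 (negative without PSCN 2). At this depth members under 1 CPM rest on few counts.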
